A study of Mus musculus with 6 samples.

Results

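Smpd3, Spp1, Ibsp, Dlx6, Tnfsf11 and Col10a1 are 6 genes of chondrocyte hypertrophy and mineralisation, and their Runx2-associated regions were read from 2 deposited lists of 1000 windows each, 2000 windows in all. A window belonged to a gene when the deposited annotation named that gene as the nearest one, and a window of the other list was added when it overlapped by 1 bp. This rule gave 7 windows at 4 sites, 3 in the normal-culture list and 4 in the IL-1β list. Smpd3, Spp1 and Dlx6 had a window in both lists, Tnfsf11 had a window in the IL-1β list and none in the normal-culture list, and Ibsp and Col10a1 had none in either list. For Ibsp and Col10a1 the closest window of each list on their chromosome is given instead.

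The windows come from chromatin immunoprecipitation followed by sequencing (ChIP-seq), which recovers the DNA that a protein is bound to in fixed cells. Primary chondrocytes were taken from 5-day-old C57BL/6 mice whose Runx2 protein carries a Biotin-FLAG tag, and were kept in normal culture or exposed to IL-1β, an inflammatory cytokine, at a labelled 1 ng per µL. All 6 libraries therefore share the tagged Runx2 protein: 1 anti-FLAG, 1 IgG and 1 input library per culture. Each list compares the anti-FLAG library with the input library of the same culture, so there is 1 library per group, no replicate error, and no test between the cultures.

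During endochondral bone formation, chondrocytes stop dividing, enlarge into hypertrophic cells and deposit a matrix rich in type X collagen, which is then mineralised and replaced by bone. Runx2, a DNA-binding protein of the Runt family, drives this hypertrophy and is also required for osteoblast formation. Runx proteins bind the short motif TG(T/C)GGT, written in the DNA as TGTGGT or TGCGGT, or as ACCACA or ACCGCA when it lies on the opposite strand. The 6 genes cover an enzyme of mineralisation (Smpd3), secreted matrix proteins of mineralising tissue (Spp1, Ibsp), the collagen that marks hypertrophic cells (Col10a1), a homeobox transcription factor of skeletal development (Dlx6) and the cytokine that drives osteoclast formation (Tnfsf11).

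The DNA of the 4 sites is shown so that the position of the Runx motif in each can be read. Each is the plus strand of mm9 over the union of the windows of both lists, with the Runx motif in capitals.

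Smpd3, chr8:108816487-108816614: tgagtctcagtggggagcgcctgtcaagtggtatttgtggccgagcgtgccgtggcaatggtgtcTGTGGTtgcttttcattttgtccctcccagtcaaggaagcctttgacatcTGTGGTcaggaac

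Spp1, chr5:104836921-104837109: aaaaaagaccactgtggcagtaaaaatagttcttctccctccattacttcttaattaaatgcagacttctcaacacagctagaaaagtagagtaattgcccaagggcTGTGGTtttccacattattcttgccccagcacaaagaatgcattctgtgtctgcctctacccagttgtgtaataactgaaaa

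Dlx6, chr6:6752045-6752164: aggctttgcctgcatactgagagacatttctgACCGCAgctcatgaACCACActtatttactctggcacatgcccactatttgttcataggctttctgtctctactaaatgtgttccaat

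Tnfsf11, chr14:78784349-78784448: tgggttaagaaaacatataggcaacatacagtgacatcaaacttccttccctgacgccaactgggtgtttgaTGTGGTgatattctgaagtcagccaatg

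All 4 sites held a Runx motif, with 2 motifs each at Smpd3 and Dlx6 and 1 each at Spp1 and Tnfsf11. The motifs of Smpd3, Spp1 and Tnfsf11 read TGTGGT on the plus strand, whereas the Dlx6 site held TGCGGT and TGTGGT on the minus strand. Every stretch of 32 bases in each member window occurred once in mm9, so the sequence of these windows has no exact copy of that length elsewhere in the genome.

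Of the 7 member windows, 6 overlapped a window of the other list by at least 1 bp: 3 of 3 in normal culture and 3 of 4 with IL-1β. Over all windows, 55.1% of either list did so (551 of 1000; Wilson 95% interval 52.0% to 58.2%, counting error only). The 6 member windows come from 3 of the 4 sites, each counted once in each list. Because the rule also takes in overlapping windows of the other list, a shared site always enters this count in both lists. The count of 6 of 7 is thus partly set by the rule and is not comparable with the share over all windows. Counted by site, 3 of 4 were in both lists. The 1000 windows of a list are numbered, and a low number was read as a high rank, although neither list carries a score or a read count. Along this rank the overlap fell in both lists, from 92 to 22 of 100 windows in normal culture and from 93 to 24 of 100 with IL-1β, between the first 100 and the last 100 ranks. How many reads support a window is unknown. Each list was numbered on its own, so the ranks of a site in the 2 lists are given side by side as positions, and a difference between them is no measure of a change in Runx2 binding.

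**Figure D1:**
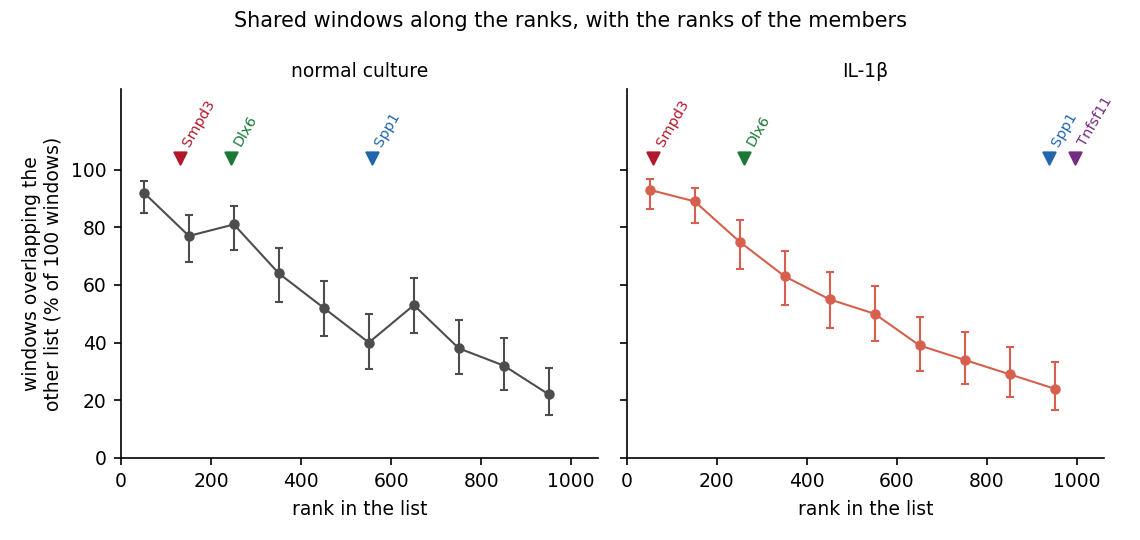
Percent of windows that overlap the other list (y axis) in steps of 100 ranks (x axis), left for normal culture and right for IL-1β; bars are Wilson 95% intervals, and triangles mark the ranks of the member windows. Smpd3 (ranks 131 and 59) and Dlx6 (244 and 261) lie where most windows are shared, while Spp1 with IL-1β (938) and Tnfsf11 (996) lie in the last bin, where 24 of 100 are.

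Smpd3 encodes a neutral sphingomyelinase, a lipid-cleaving enzyme whose loss in mice impairs mineralisation of the skeleton. It had the highest-ranked windows of the 6 genes, at rank 131 in normal culture (13.1% of the list) and rank 59 with IL-1β (5.9%). The windows overlapped by 72 bp and their centres were 28 bp apart, against a median of 20 bp over the 551 shared pairs. The ranks were 72 places apart, a difference reached or exceeded in size by 70.8% of shared pairs. Among the windows within 50 ranks, 79% were shared in normal culture and 92% with IL-1β.

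Both Smpd3 windows lay in intron 1 of the deposited transcript NM_021491, which has 9 exons and runs on the minus strand. This intron spans chr8:108812119-108861711 (49.59 kb), and the window centres were 45.3 kb (normal culture) and 45.4 kb (IL-1β) past the transcription start, with exon 2 another 4.45 and 4.42 kb away. In GENCODE M1 the Smpd3 gene model is shorter and starts at base 108789819, so against that model the same windows lay 26.7 kb upstream of the gene. The windows are therefore intronic in the deposited annotation and intergenic in the other. On the far side the next protein-coding gene was Zfp90, 122.7 kb from the window.

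The Smpd3 window of normal culture held both motifs of the site, 10 bp before and 40 bp after its centre. The IL-1β window held the first of them, 18 bp after its centre, and the other lay 21 bases past its edge. The motifs were 50 bp apart, compared with a median of 25 bp among the 147 normal-culture windows that held at least 2. A further, looser motif (TGTGGC) was present in both windows.

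Spp1 encodes osteopontin, an acidic phosphoprotein of bone and hypertrophic cartilage that binds mineral and integrins. Its window ranked 557 in normal culture (55.7% of the list) and 938 with IL-1β (93.8%), which are 381 places apart. A difference at least this large was seen in 86 of the 551 shared pairs (15.6%), and the median size of the difference was 141 places. The windows overlapped by only 11 bp and their centres were 89 bp apart, an offset that 9 of 551 pairs (1.63%) reached or exceeded. When an overlap of 50 bp was required, the Spp1 windows no longer counted as shared, and the number of shared member windows fell from 6 to 4. Over all windows the number shared was 461 of 1000 in either list at this setting, compared with 551.

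The Runx motif lay inside the Spp1 window of normal culture, 29 bp before its centre. The same motif lay 60 bp after the centre of the IL-1β window and 13 bases past its edge, so that this was the only member window of the 7 without a Runx motif. The IL-1β window did hold the looser motif TGTGGC, 35 bp before its centre. Its GC content was 36% compared with 44% in normal culture, and the median over all windows was 53% in each list. Of the windows within 50 ranks, 40% were shared around the normal-culture Spp1 window and 23% around the IL-1β Spp1 window, compared with 55.1% over either list.

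Both Spp1 windows were upstream of the deposited start of NM_009263, by 28.2 kb in either culture. They fell in a gap of 96.507 kb between Mepe and Spp1, which belong to a cluster of SIBLING genes (Dspp, Dmp1, Ibsp, Mepe and Spp1) that code for phosphoproteins of bone and tooth. Mepe ended 69.4 kb and Ibsp 96.57 kb on the opposite side of the normal-culture window. Dmp1 and Dspp were 193.9 and 227.9 kb away, and Pkd2, a cation channel gene beyond Spp1, was 51.41 kb away. Of the 5 SIBLING genes, only Spp1 was named as a nearest gene in either list.

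Ibsp encodes bone sialoprotein, which is associated with the start of mineral formation. No window was assigned to it, and its closest windows were those described at Spp1, 96.6 kb from the gene body (chr5:104728190-104740488) in normal culture and 96.5 kb with IL-1β. A closer window was found for 14.0% and 13.2% of 22350 protein-coding genes, respectively. These values rest on windows assigned to Spp1, a member from the same gene cluster, and are not separate from those of Spp1. No window of either list lay within 100 kb of the Ibsp start.

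Col10a1 encodes type X collagen, the defining matrix protein of hypertrophic chondrocytes and a known Runx2 target. No window was assigned to it, and none lay within 5 kb of its start. The gene (chr10:34109787-34116891, plus strand) lies inside Nt5dc1, which runs on the minus strand, and its closest window in each list was at the start of Tspyl4, 92.6 kb upstream. That window ranked 270 in normal culture and 323 with IL-1β, was shared, held 1 Runx motif and had a GC content of 57% and 56%. Its centre was 0.006 kb past the Tspyl4 start in normal culture and 0.004 kb before it with IL-1β, so it is a promoter window of another gene. A closer window was found for 13.5% (normal culture) and 12.8% (IL-1β) of protein-coding genes.

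Dlx6 encodes a homeobox transcription factor that, with its neighbour Dlx5, acts in limb, jaw and cartilage development. Its windows stood at rank 244 in normal culture (24.4% of the list) and rank 261 with IL-1β (26.1%). A difference of at least 17 places was present in 92.6% of shared pairs. The windows overlapped by 80 bp with centres 20 bp apart, which equals the median pair. The shared portion within 50 ranks was 82% in normal culture and 74% with IL-1β.

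The Dlx6 windows were 61.2 kb upstream of the start of NM_010057 in both cultures, in a gap of 284.68 kb without protein-coding genes between Shfm1 and Dlx6. Shfm1 was 223.5 kb away, and the Dlx5 start lay beyond Dlx6 at 79.97 kb. Both motifs of the site, 14 bp apart, were in both windows. Their centres were 35 and 21 bp before the centre in normal culture and 15 and 1 bp before it with IL-1β. GC content was 42% and 46%.

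Tnfsf11 encodes RANKL, the ligand by which osteoblasts, osteocytes and hypertrophic chondrocytes promote osteoclast differentiation, and in mouse it is known to be controlled by regions far upstream of its start. It had a window with IL-1β at rank 996 of 1000 (99.6%), close to the end of the deposited list. That list holds only a part of the peaks the study reported, so this is not a position among all peaks. The window was 76.5 kb upstream of the start of NM_011613, in a gap of 184.2 kb between Tnfsf11 and Akap11, and held 1 Runx motif 25 bp after its centre.

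The Tnfsf11 window had no counterpart in normal culture, where the closest window (rank 84, assigned to Tsc22d1) lay 1595.5 kb from the gene. A closer normal-culture window was found for 72.2% of protein-coding genes, compared with 11.2% with IL-1β. The IL-1β value follows from the rule, because it rests on the assigned window at rank 996, close to the end of the list. Of the 54 other windows within 50 ranks of Tnfsf11, 14 (25.93%) were shared, so most windows this far down the IL-1β list have no overlap with the normal-culture list. Since each list ends at 1000 windows, absence from a list does not separate a region without Runx2 signal from one ranked below its end.

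**Figure D2:**
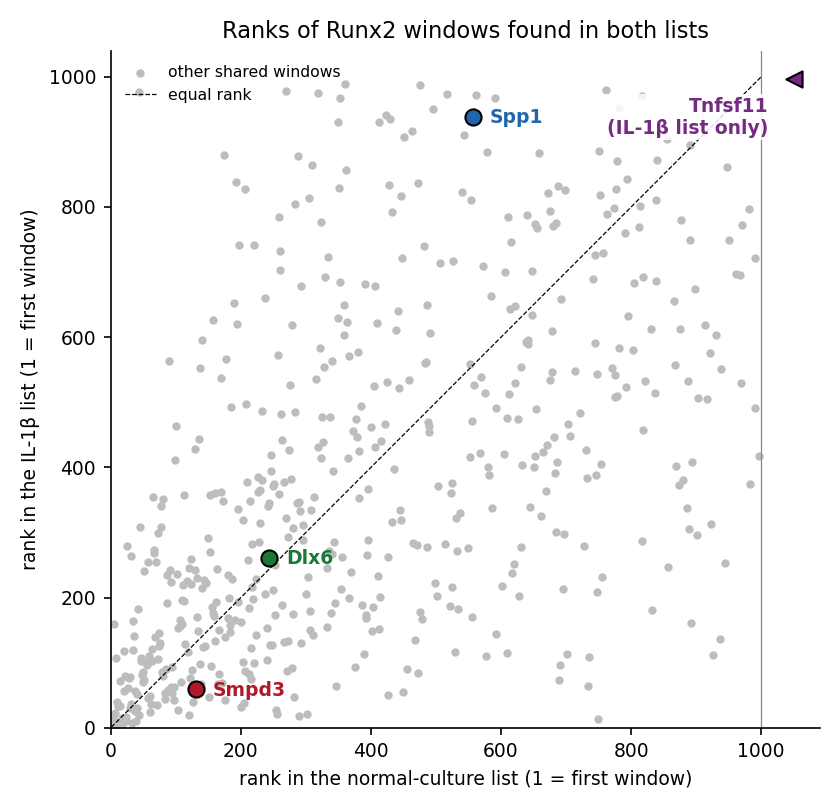
Rank in the normal-culture list (x axis) against rank in the IL-1β list (y axis) for all 551 shared pairs (grey) with the members in colour; the dashed line marks equal rank and the triangle marks Tnfsf11, which has no normal-culture rank. Dlx6 lies close to the line (244 and 261), Smpd3 below it (131 and 59) and Spp1 far above it (557 and 938).

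The shared sites whose ranks were most like each member were found by the distance between the pairs of ranks, over 551 sites. Closest to Smpd3 were the sites named for Psat1 (139 and 68), Zfp623 (122 and 76) and Icos (126 and 40). Closest to Spp1 was the site named for Zfand5 or Tmc1 (559 and 946), then 1700065D16Rik (543 and 911) and Avpi1 (562 and 972). Among those closest to Dlx6 were the sites named for Cdc123 or Camk1d (228 and 285) and Arl6ip2 (211 and 258). These values describe position in the lists only.

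**Figure D3:**
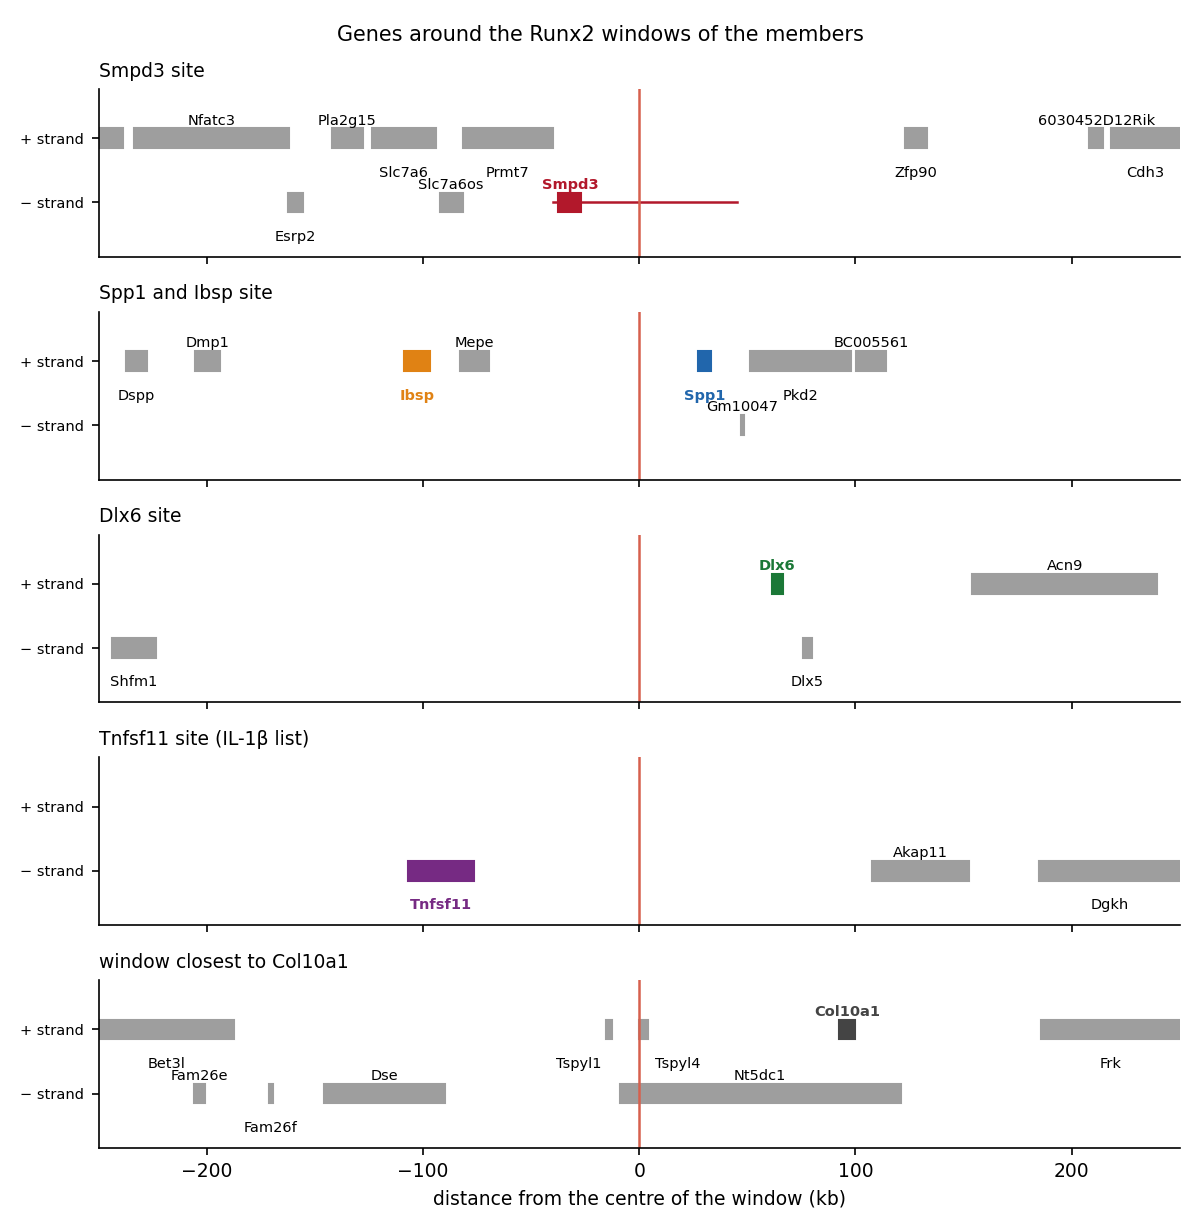
Protein-coding genes of GENCODE M1 within 250 kb of each site, by distance from the window centre (x axis, kb) and strand (y axis); the vertical line is the window, the thin red line is the longer deposited Smpd3 transcript, and the site shown for Spp1 is also the closest to Ibsp. The Smpd3 window lies within the deposited transcript and beside the shorter model, and the Spp1, Dlx6 and Tnfsf11 windows lie 28.2, 61.2 and 76.5 kb upstream of the deposited starts.

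All 7 member windows were distal to the start of their gene, between 28.2 and 76.5 kb from the deposited start. The median distance was 39.56 kb over the normal-culture list and 30.11 kb over the IL-1β list. Windows at 20 to 80 kb made up 31.7% and 27.8% of the lists, and 58.4% and 55.8% of those were shared. No member had a window within 5 kb of its start, nor did most protein-coding genes, of which 1.79% (normal culture) and 1.61% (IL-1β) had one. Of the windows themselves, 14.9% of normal-culture and 17.5% of IL-1β windows lay within 500 bp of a start.

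**Figure D4:**
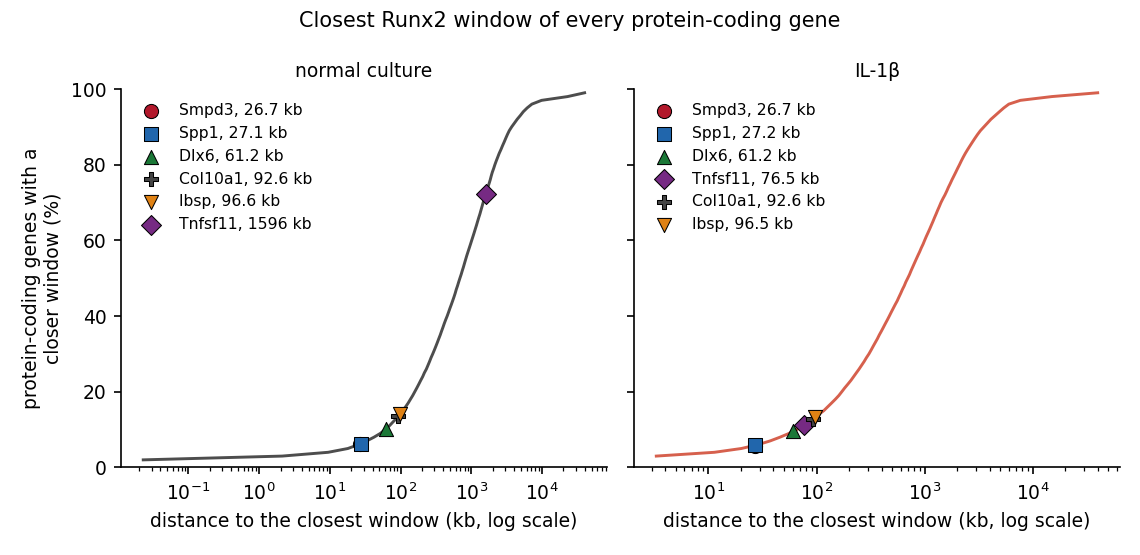
Distance from each protein-coding gene of GENCODE M1 to its closest window (x axis, kb, log scale) against the percent of genes with a closer window (y axis), left for normal culture and right for IL-1β; symbols are the 6 members. In normal culture Tnfsf11 is far to the right (1596 kb), and with IL-1β all 6 members lie below 100 kb, where 13.5% of genes have a window. With IL-1β, Smpd3, Spp1, Dlx6 and Tnfsf11 have a window assigned by the rule, so their short distances follow from that choice. The Ibsp distances run to the Spp1 windows.

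A Runx motif was present in 6 of the 7 member windows. Over all windows the motif was held by 63.3% (normal culture) and 59.4% (IL-1β), with Wilson 95% intervals of 60.3% to 66.2% and 56.3% to 62.4%. At least 2 motifs were held by 3 of the 7 member windows (Smpd3 in normal culture and Dlx6 in both cultures), compared with 14.7% and 11.8% of all windows. In windows more than 500 bp from a start, as all member windows were, the motif was present in 66.3% and 62.5%. None of the 14 stretches of 100 bp lying 1000 bp to either side of the member windows held a motif, and 8.1% (normal culture) and 9.4% (IL-1β) of such stretches did over all windows. With 7 windows at 4 sites, these counts describe the members and were not tested.

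**Figure D5:**
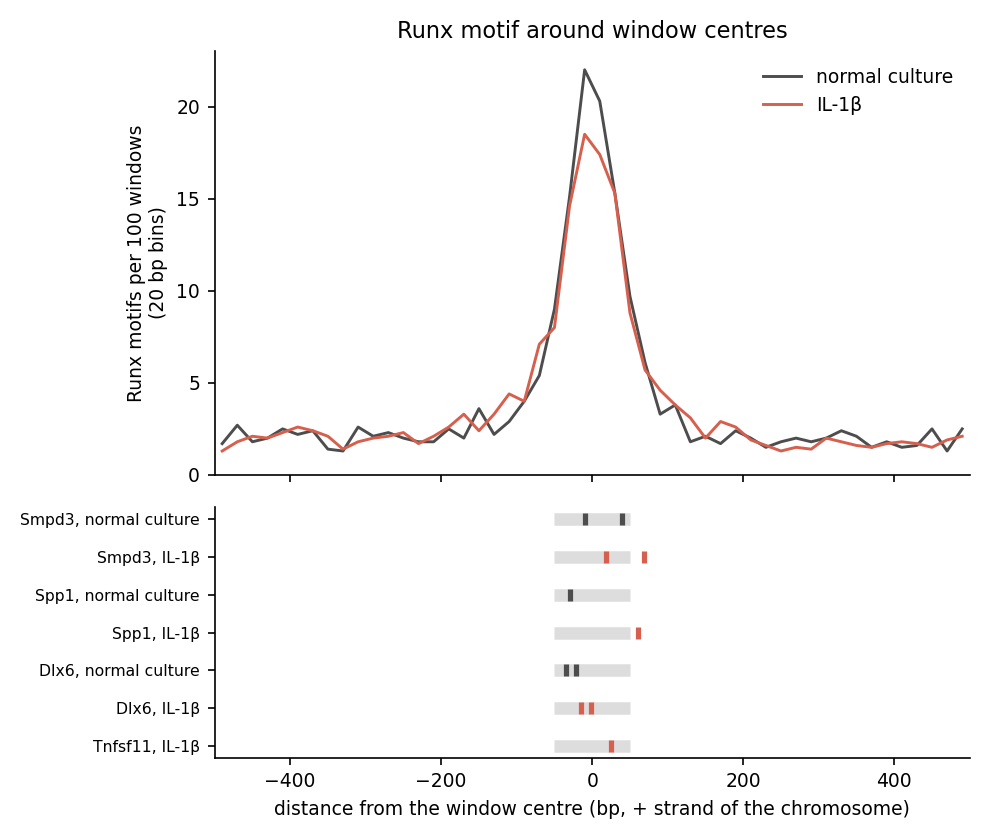
Upper panel: Runx motifs per 100 windows (y axis) in 20 bp bins by distance from the window centre (x axis, bp) for the normal-culture and IL-1β lists. Lower panel: Runx motifs of each member window (ticks), with the 100 bp window in grey; the ticks of Smpd3 and Spp1 with IL-1β that lie outside the grey bar are at 68 and 60 bp.

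Over all windows the motif was concentrated at the centre, with 21.1 motifs per 100 windows per 20 bp in the central bins of normal culture and 2.01 beyond 400 bp. The corresponding values with IL-1β were 17.9 and 1.85. The member motifs that lay in windows were between 1 and 40 bp from the centre.

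The member windows were also read, on either strand, for consensus motifs of other factors. An E-box (CANNTG), the motif of basic helix-loop-helix factors, was present in 6 of 7 member windows, all except Spp1 with IL-1β, and in 35.7% and 36.0% of all windows. The 7 windows lie at 4 sites and are not independent, so the difference from all windows was not tested. The Dlx6 match was the same copy in both windows. At Smpd3 the match of each window lay outside the stretch that both windows cover. The Ets motif GGAAG was present in the Smpd3 window of normal culture and in the Tnfsf11 window, and in 31.1% and 28.8% of all windows. The homeobox core TAATT occurred once in the Spp1 window of normal culture, in the stretch that both Spp1 windows cover. The IL-1β window of Spp1 had 3 matches, counting this copy and matches on opposite strands that overlap each other. The core was present in 8.0% and 7.9% of all windows. No member window held the AP-1 motif TGANTCA (7.7% and 7.6% of all windows), the Sox motif ACAAT (7.2% and 8.0%), the TEAD motif GGAATG (12.9% and 11.4%) or the NF-kB motif (6.8% in either list). CRE, Mef2 and GATA motifs were also not found in them. Absence of these letters from 100 bp says nothing of the factors themselves.

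Promoter sequences of RefSeq (GRCm38.p6, 250 bases before to 50 after the start) were matched for 4 of the 6 members, Ibsp, Spp1, Col10a1 and Tnfsf11, with 5 promoters in all. The Runx motif was found in 1 of them, a Spp1 promoter, on the reverse strand 125 bases before the start. Of all 32851 promoters, 22.4% held the motif.

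Other genes of hypertrophy and mineralisation were read from lists that hold 67 genes with the members. The normal-culture list named 14 of them (20.9%) and the IL-1β list 12 (17.9%), with 10 in both. Of all protein-coding genes, 4.11% and 4.04% were named. Without the 6 members, whose choice fixes part of the count, 11 (18.0%) and 8 (13.1%) of 61 genes were named. The lists were chosen with these data known, and nothing was tested on them.

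Of the named genes, 8 of 14 in normal culture and 6 of 12 with IL-1β were regulators of hypertrophy, a list of 19 genes. Windows named for the Runx family genes Runx3 (ranks 111 and 220) and Runx1 (160 and 361), for Hdac4 (771 and 552), a histone deacetylase that restrains hypertrophy, for Pth1r (532 and 271), the receptor for parathyroid hormone-related protein, and for Sox9 (490 and 454), the chondrocyte master regulator, were in both lists. Another shared site was named for Runx3 (679 and 546) and another for Pth1r (840 and 872). The Sox9 windows lay 309.0 kb upstream of the gene, and with GENCODE M1 the nearest gene was Gm11678, so that Sox9 was named in neither list. Bmp2, Bmp4 and Bmp7 were named in normal culture alone and Bmp6 with IL-1β alone, although the Bmp4 window (rank 247, 397.0 kb from the gene) overlapped IL-1β rank 419, which carried another gene name. With GENCODE M1, Bmp6 was also the nearest gene of a normal-culture window (rank 942). Hence a difference in gene name between the lists was not always a difference in window.

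Among 11 mineralisation enzymes and transporters, Smpd3 and the phosphate transporter gene Slc20a2 were named in both lists. The Slc20a2 windows (ranks 482 and 759) lay in an intron, 59.8 and 59.6 kb from the start, and did not overlap. Of 10 hypertrophic matrix genes Spp1 was the only one named, and of 6 Dlx genes only Dlx6 was. In the RANKL axis, Csf1, the macrophage growth factor that acts with RANKL in osteoclast formation, had a shared window 9.43 kb upstream of its start at ranks 151 and 47. Tnfsf11 was the other of the 5 genes named, with IL-1β. Of 9 osteoblast genes, Atf4 was named in normal culture (rank 837) and none with IL-1β. Of 21 marker genes of other cells, 2 (9.52%) were named in each list. Over all protein-coding genes the shares were 4.11% (normal culture) and 4.04% (IL-1β). The markers were Sfpi1 (ranks 20 and 56) in both lists, Pecam1 in normal culture and Emcn with IL-1β. The Pecam1 window (rank 196) overlapped IL-1β rank 336, which was named for Tex2. With GENCODE M1 the nearest gene of the Pecam1 window was also Tex2. ChIP windows hold no expression values, so the labelled cell type was not checked by marker levels.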

How the data were processed

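Primary chondrocytes of 5-day-old mice with tagged Runx2 were studied by ChIP-seq in 6 libraries (anti-FLAG, IgG and input, 1 each per culture); the IgG libraries were not used here. Per the labels and the study's methods, the authors aligned reads to mm9 with Bowtie2 2.2.2, called peaks in CisGenome against the input of the same culture, and kept 100 bp around each peak centre. The deposited lists hold 1000 numbered windows each, with coordinates and the nearest RefSeq transcript as other, non-measurement columns; they carry no score or count, and the order of the numbering is not given in the sources used here. The labelled IL-1β dose is per µL and that of the methods per mL.

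Members and lists were chosen with earlier results of these data known. Named genes were the members, genes beside their windows, list genes that a window names, and the 3 shared sites nearest in rank, of which 1 is not reported here. Deposited coordinates were read as 0-based starts, since transcript starts were 1 base below GENCODE M1, and are printed 1-based. Distances of assigned windows run from window centres to deposited transcript starts; those to neighbouring genes, to the closest windows of Ibsp, Col10a1 and Tnfsf11, and over all genes run to GENCODE M1 genes. Of the deposited gene names, 901 (normal culture) and 885 (IL-1β) matched RefSeq. Motifs were searched on both strands in NCBIM37 (mm9). Code ran in Python 3.11.15 with pysam 0.24.0 and was tested on simulated data. Alternatives were the minimum overlap, the 500 highest-ranked windows, GENCODE annotation, and the motif and its window. No replicate could be left out, since each group is 1 library.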

Additional observations from a re-analysis of the deposited data

How the results depend on the processing

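Of 29 alternative values, 23 kept their direction, with counts within 1.5 times the main count. With the 500 highest-ranked windows of each list, 293 of 500 windows were shared in either list (551 of 1000 in full), the lists held 2 member windows each in place of 3 (normal culture) and 4 (IL-1β), without Spp1 and Tnfsf11, and 8 listed genes were named in each list in place of 14 (normal culture) and 12 (IL-1β); fewer windows enter these counts by construction. Against the GENCODE M1 start, the Smpd3 windows lay at -26.745 kb (normal culture) and -26.717 kb (IL-1β), upstream instead of 45.323 and 45.351 kb inside, because that gene model is shorter. The shared member windows numbered 4 at 50 bp of overlap (without Spp1) and 6 with centres within 200 bp. All 7 member windows held a Runx motif when a last base C was allowed or when 300 bp were searched, as did 76.8% and 72.9% of all windows with the wider motif and 80.2% and 78.5% over 300 bp (normal culture and IL-1β). No paired analysis was possible because each group is 1 library. Unknown depth and the end of each list at 1000 windows limit what absence shows.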
